A study of Mus musculus with 14 samples.

Results

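The annexin family was described across sorted dorsal horn microglia from mice with and without inflammatory arthritis. Its members were the genes of the deposited values whose symbol is Anxa1, Anxa2, Anxa3, Anxa4, Anxa5, Anxa6, Anxa7 or Anxa11, which gave 8 of 14329 genes. Microglia carrying CD11b and CX3CR1, with low CD45 and without surface Ly6C or CCR2, had been sorted from the dorsal lumbar cord of 6-month-old male and female mice at day 5 after serum transfer (ST), and 2000 cells went into each sample. WT mice were C57BL/6 and without human transgenes, and TASTPM mice were heterozygous for human transgenes, mutant APP among them, under the murine Thy-1 promoter, which is best known from neurons. Arthritis was induced by intraperitoneal serum of K/BxN mice, which carries arthritogenic antibodies, and control mice were given serum of mice that do not develop arthritis. There were 4 libraries of WT K/BxN ST, 3 of WT Control ST, 4 of TASTPM K/BxN ST and 3 of TASTPM Control ST. The libraries of TASTPM K/BxN ST are numbered as labelled and those of the other groups in the order of the deposited values. The study's methods give individual mice as replicates, which the labels do not state for each library, and p-values measure the spread between these libraries.

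Annexins are proteins that bind acidic phospholipids of cell membranes when calcium rises, through a conserved core, and differ from each other in a variable amino-terminal tail. Through these tails several of them pair with small calcium-binding S100 proteins, and the family is known for roles in membrane repair, vesicle traffic and the binding of phosphatidylserine on dying cells. Anxa1 is also known as a ligand of formyl peptide receptors that limits inflammation, and is abundant in neutrophils and monocytes, the blood cells that enter inflamed tissue.

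The sorted cells had the transcripts of microglia, but 4 of the 14 libraries also held high levels of monocyte markers, and 3 of these 4 of most neutrophil markers. All 10 microglia markers were detected in every library, Tmem119 between 42292 and 162963 normalized counts, where a normalized count is a gene's reads scaled by the factor of its library. The summed microglia markers were 281285 to 932555 in TASTPM K/BxN ST, 815494 to 1090225 in TASTPM Control ST, 448959 to 1015186 in WT K/BxN ST and 1066954 to 1100113 in WT Control ST. In K/BxN ST libraries 1 and 2 of either genotype, each of the 10 classical monocyte markers, among them Ly6c2 and Ccr2, whose proteins the gate excluded, lay above its level in all other libraries, with sums of 104955 to 205258 against 226 to 1166. Of the 10 neutrophil markers, 9 stood above the other 10 libraries in 3 of these 4. In the remaining library, WT K/BxN ST 2, only 2 did so, Camp and Mmp8, while Ly6g was at 0 and Ngp, a granule protein of immature neutrophils, at 32.8 normalized counts against 50469 to 63729 in the other 3. Monocyte and neutrophil markers together took 2.43% of reads in TASTPM K/BxN ST 1, 1.995% in TASTPM K/BxN ST 2, 2.35% in WT K/BxN ST 1, 0.695% in WT K/BxN ST 2 and 0.0281% to 0.0730% in the other 10 libraries. These 4 libraries were singled out by their markers after the data had been seen, and the serum comparisons and levels of the annexins are given with and without them. Of the other 10 libraries, Ly6g was at 0 in 9 and the monocyte marker Vcan at 0 in 7. Markers of dendritic cells (5 genes, 1003 to 8079 normalized counts in sum against 92.2 to 592) and border-associated macrophages (8 genes, 1438 to 3911 against 0 to 1024) also summed higher in the 4. Singly, 3 of the 5 dendritic cell markers and 4 of the 8 macrophage markers lay above the other 10 libraries in all 4. Libraries held 14223015 to 20239175 reads on genes.

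Per length of transcript, Anxa3 was the highest annexin and Anxa1 the lowest by median in the 10 libraries outside the 4, whereas Anxa2 exceeded Anxa3 in each of the 4. Levels were compared as normalized counts per kilobase of merged exons of each gene in GRCm39. Over the 14 libraries Anxa3 had 1284 ± 307 (SD, n = 14) normalized counts per kilobase, Anxa6 274 ± 117, Anxa5 435 ± 447, Anxa7 185 ± 59.8 and Anxa4 126 ± 63.3. Anxa2 had 873 ± 1558, Anxa1 723 ± 1318 and Anxa11 10.3 ± 7.29, and for Anxa1, Anxa2 and Anxa5 the SD exceeded the mean. Ordered by the median, which these libraries move less, Anxa3 (1290 normalized counts per kilobase) was followed by Anxa6 (254), Anxa5 (200), Anxa7 (181), Anxa4 (111), Anxa2 (35.6), Anxa11 (6.47) and Anxa1 (1.61). In the 10 libraries Anxa3 had 1404 ± 264 (SD, n = 10) normalized counts per kilobase, Anxa5 184 ± 61.5, Anxa2 30.3 ± 13.3 and Anxa1 2.61 ± 4.64. In the 4, Anxa2 had 1534 to 4486, Anxa1 1019 to 3728, Anxa5 658 to 1363 and Anxa3 823 to 1230, and per kilobase of merged exons Anxa1 exceeded Anxa3 in 4 of them and Anxa5 in 2. Anxa3 exceeded Anxa6 in 14 of 14 libraries and Anxa2 exceeded Anxa11 in 14 of 14. Neighbours in this order were not all apart, since Anxa6 exceeded Anxa5 in 7 of 14 libraries, Anxa5 exceeded Anxa7 in 10 and Anxa11 exceeded Anxa1 in 9. With the length of the canonical transcript in place of merged exons, Anxa3 stayed highest (median 4828 normalized counts per kilobase), and Anxa5 (979) moved ahead of Anxa6 (617). With that length Anxa2 exceeded Anxa3 in 4 of the 4 libraries, Anxa5 in 3 and Anxa1 in 2, and none of them did so in the other 10.

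**Figure D1:**
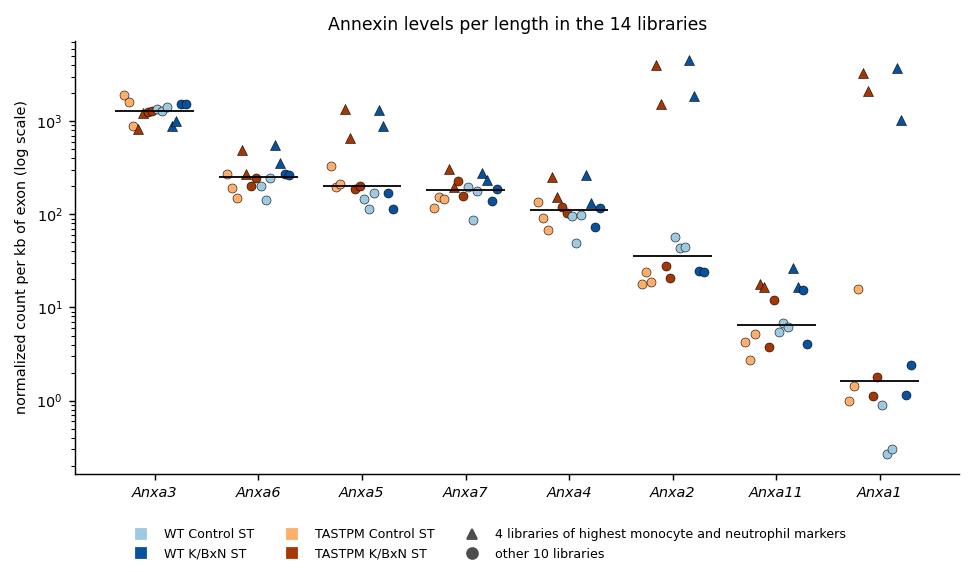
Level of each annexin in normalized counts per kilobase of merged exons (vertical log axis), 1 point per library coloured by group, with a line at the median of the 14 libraries. Anxa3 ranges from 823 to 1912 around its median of 1290. Anxa1 and Anxa2 spread over several powers of 10 because the 4 libraries of highest monocyte and neutrophil markers (triangles) lie apart.

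Anxa1, a ligand of formyl peptide receptors, was close to absent from 10 libraries and abundant in 4. The gene lies on the minus strand of chromosome 19 of GRCm39 from 20350792 to 20368374. In TASTPM mice, K/BxN ST libraries 1 to 4 held 10152, 6563, 3.52 and 5.64 normalized counts of Anxa1, where Control ST libraries held 3.13, 4.44 and 49.1. In WT mice, K/BxN ST libraries 1 to 4 held 11653, 3184, 3.58 and 7.63, where Control ST libraries held 2.81, 0.838 and 0.955, which stand for 3, 1 and 1 reads. The 2 high libraries of either genotype were those of high leukocyte markers. Of the 4, the lowest Anxa1 belonged to WT K/BxN ST 2, the library with the lowest sums of both monocyte (104955 normalized counts) and neutrophil markers (10337) among them. Not all members shared this order. Anxa2 (7713) and Anxa5 (5578) were lowest of the 4 in TASTPM K/BxN ST 2, and Anxa11 had 130 there and 129 in WT K/BxN ST 2. The TASTPM Control ST library with 49.1 also had the highest sums of monocyte markers (1166 normalized counts, of which F13a1 made up 969) and of border-associated macrophage markers (1024) of the other 10 libraries. Because the Control ST libraries of WT held 1 to 3 reads, no linear fold is given, and with 10 or more reads in 5 of 14 libraries Anxa1 was tested in a fit of all 14329 genes. Its log2 fold change of K/BxN ST over Control ST was 6.35 in WT (standard error 3.01, limma adjusted p = 0.690), a value that depends on the 1 added to each count. It was 4.35 in TASTPM (standard error 3.01, limma adjusted p = 0.947). The WT groups did not overlap, but the lowest K/BxN ST and the highest Control ST library each held 3 reads, and the two-sided exact permutation test on log2 values gave p = 0.171 in WT and p = 0.314 in TASTPM.

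Anxa2, which forms a membrane complex with S100a10 that binds plasminogen, showed the same 4 high libraries over a low but measurable base. It lies on the plus strand of chromosome 9 from 69360542 to 69399077. Among TASTPM libraries, those of K/BxN ST held 20287, 7713, 141 and 103.8 normalized counts of Anxa2, where those of Control ST held 88.8, 122 and 93.6. Among WT libraries, those of K/BxN ST held 22561, 9379, 124 and 120, where those of Control ST held 288, 217 and 223. K/BxN ST libraries 1 and 2 exceeded the mean of their Control ST libraries 200-fold and 76.0-fold in TASTPM and 92.9-fold and 38.6-fold in WT, while WT K/BxN ST 3 and 4 lay below all 3 WT Control ST libraries. The log2 fold change was 2.47 in WT (standard error 1.95, limma adjusted p = 0.785; exact permutation p = 0.429) and 3.61 in TASTPM (standard error 1.95, limma adjusted p = 0.964; exact permutation p = 0.200), with groups that overlapped in either genotype.

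Anxa1 and Anxa2 were, like Anxa5 and Anxa11, high in the same 4 libraries, and Anxa6 was the member with the smallest p averaged over genotypes. For Anxa1, Anxa2 and Anxa6, the sequence just before the start of the canonical transcript is shown, from 5′ to 3′ on the strand of the gene, as read from GRCm39. Capitals mark matches on either strand to TGANTCA (AP-1), to TTNNGNAA (C/EBP), to GAGGAA (the core bound by PU.1) or to GGGCGG (Sp1), and a TATAAA box was searched and not matched in these 3. Only bases that no annotated exon covers are printed, which left Anxa1 chr19:20368375-20368624 (minus strand), Anxa2 chr9:69360689-69360901 (plus strand) and Anxa6 chr11:54924306-54924555 (minus strand).
Anxa1: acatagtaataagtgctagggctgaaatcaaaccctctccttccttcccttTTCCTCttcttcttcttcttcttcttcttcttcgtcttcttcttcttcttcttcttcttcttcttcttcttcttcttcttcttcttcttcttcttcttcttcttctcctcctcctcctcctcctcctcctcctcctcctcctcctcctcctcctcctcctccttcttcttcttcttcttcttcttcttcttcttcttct
Anxa2: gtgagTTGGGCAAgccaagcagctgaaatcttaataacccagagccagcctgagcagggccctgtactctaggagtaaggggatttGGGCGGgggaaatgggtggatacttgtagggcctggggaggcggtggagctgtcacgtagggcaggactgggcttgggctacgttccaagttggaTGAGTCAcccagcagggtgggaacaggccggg
Anxa6: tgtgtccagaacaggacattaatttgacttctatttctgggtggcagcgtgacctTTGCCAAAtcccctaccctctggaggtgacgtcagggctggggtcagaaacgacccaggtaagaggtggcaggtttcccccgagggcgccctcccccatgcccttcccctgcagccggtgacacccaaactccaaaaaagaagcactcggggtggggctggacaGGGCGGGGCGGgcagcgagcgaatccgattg
The Anxa1 stretch is a long run of pyrimidines, 91.2% C or T, a share that 2 of 21593 protein-coding promoters of the same 250 bases reached, Anxa1 included. In the 250 bases before the start, Anxa2 held 1 AP-1 match at 32 to 26 bases before it, where 6.14% of all promoters hold 1 or more, and 1 C/EBP match (36.8% of promoters). Anxa6 held 2 overlapping Sp1 matches (36.4% of promoters) and 1 C/EBP match, and Anxa1 held 1 PU.1 match (22.9% of promoters). Of the members not printed, Anxa11 held 1 PU.1 and 2 Sp1 matches and Anxa3 held 2 PU.1 and 2 Sp1 matches. Anxa7 held 1 Sp1 match, and Anxa4 and Anxa5 held none. These matches are letters in a window and were not tested for binding.

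Anxa5, which binds phosphatidylserine and is used as a probe of dying cells, had a base above 900 normalized counts in every library and was again highest in the 4. Its gene is on the minus strand of chromosome 3 from 36503072 to 36530126. For TASTPM, normalized counts of Anxa5 after K/BxN ST were 11553, 5578, 1566 and 1709, and after Control ST 2791, 1681 and 1782. For WT, those after K/BxN ST were 11300, 7581, 1429 and 965, and those after Control ST 1226, 971 and 1445. Libraries 3 and 4 of K/BxN ST lay within or below the range of their Control ST libraries, so the groups overlapped. The log2 fold change of Anxa5 was 1.46 in WT (standard error 0.80, limma adjusted p = 0.727; exact permutation p = 0.343) and 0.84 in TASTPM (standard error 0.80, limma adjusted p = 0.964; exact permutation p = 0.400).

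Anxa11, which tethers RNA granules to lysosomes, was scarce throughout. It lies on the plus strand of chromosome 14 from 25842547 to 25887229, and 718 bases of its exons are shared with neighbouring genes, as are 753 of Anxa4, 612 of Anxa5, 112 of Anxa3, 98 of Anxa2 and 95 of Anxa6. Reads on shared bases cannot be told apart in an unstranded library. For TASTPM, normalized counts of Anxa11 after K/BxN ST were 138, 130, 29.4 and 92.5, and after Control ST 33.4, 21.1 and 40.0. For WT, those after K/BxN ST were 208, 129, 119 and 31.6, and those after Control ST 42.2, 52.8 and 47.8. In either genotype 3 of the 4 K/BxN ST libraries exceeded every Control ST library and 1 fell among or under them. The log2 fold change of Anxa11 was 1.07 in WT (standard error 0.73, limma adjusted p = 0.774; exact permutation p = 0.171) and 1.43 in TASTPM (standard error 0.73, limma adjusted p = 0.964; exact permutation p = 0.114).

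Anxa4, Anxa6 and Anxa7 act in membrane traffic and differed less between libraries. Anxa6, the member with 2 copies of the annexin core, had normalized counts of 3713, 2413, 1844 and 1781 after K/BxN ST and of 1369, 961 and 1657 after Control ST in WT mice. In TASTPM mice it had 3295, 1822, 1370 and 1649 after K/BxN ST and 1827, 1298 and 1013 after Control ST. All 4 WT K/BxN ST libraries lay above all 3 WT Control ST libraries, and the TASTPM groups overlapped. Its log2 fold change was 0.84 in WT (standard error 0.34, limma adjusted p = 0.668; exact permutation p = 0.0571), and 0.52 in TASTPM (limma adjusted p = 0.964; exact permutation p = 0.229). Anxa7, a promoter of membrane fusion, had normalized counts of 1976, 1286, 1483 and 1013 after K/BxN ST and of 757, 998 and 958 after Control ST in TASTPM mice, groups that did not overlap. In WT mice the groups overlapped, with 1802, 1521, 911 and 1207 after K/BxN ST and 1273, 566 and 1152 after Control ST. Its log2 fold change was 0.64 in TASTPM (standard error 0.32, limma adjusted p = 0.964; exact permutation p = 0.0571) and 0.49 in WT (limma adjusted p = 0.764; exact permutation p = 0.286). Anxa4, which is best known from secretory epithelia, had normalized counts of 1571, 952, 750 and 644 after K/BxN ST and of 844, 571 and 415 after Control ST in TASTPM mice. In WT mice it had 1642, 817, 454 and 731 after K/BxN ST and 595, 306 and 608 after Control ST. Its groups overlapped in either genotype, with log2 fold changes of 0.76 in WT (limma adjusted p = 0.734) and 0.66 in TASTPM (limma adjusted p = 0.964).

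Anxa3 was the 1 annexin with a fold change below 0 in either genotype. The gene, on the plus strand of chromosome 5 from 96940544 to 96993828, encodes a member known from neutrophil granules and from microglia. For TASTPM, normalized counts of Anxa3 after K/BxN ST were 5112, 7636, 7805 and 7984, and after Control ST 11872, 9913 and 5568. For WT, those after K/BxN ST were 5530, 6192, 9411 and 9409, and those after Control ST 8332, 8034 and 8836. The TASTPM groups overlapped, and in WT K/BxN ST libraries 1 and 2 were below and libraries 3 and 4 above all Control ST libraries. The log2 fold change was −0.18 in WT (standard error 0.27, limma adjusted p = 0.884) and −0.31 in TASTPM (standard error 0.27, limma adjusted p = 0.964), less than the spread between libraries.

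**Figure D2:**
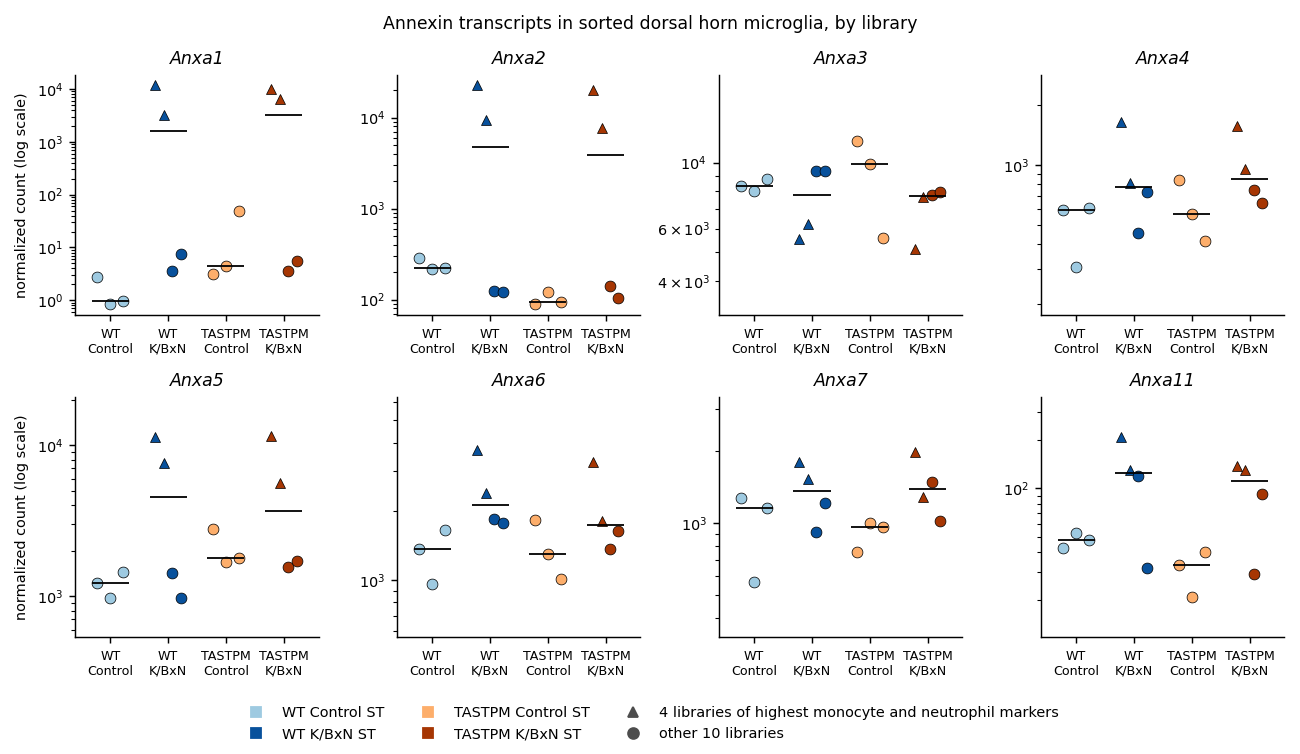
Normalized counts of the 8 annexins (vertical log axis, a scale of its own in each panel) in each library of the 4 groups, with a line at each group's median. Triangles are the 4 K/BxN ST libraries of highest monocyte and neutrophil markers, where Anxa1, Anxa2, Anxa5 and Anxa11 lie above all other libraries.

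Over the family, limma and edgeR called no annexin in any of the 6 comparisons, while DESeq2 called Anxa1 and Anxa2 in serum comparisons, as given further on. A call needed an adjusted p below 0.05 over all genes and an absolute log2 fold change above 1. By limma, 0.00791% of 12645 genes (1 gene) were called in WT, and 0% in TASTPM, in the average over genotypes, in the interaction and in both comparisons of genotypes. The fold change of K/BxN ST over Control ST was above 0 for 7 of 8 annexins in WT (54.0% of all genes tested) and 7 of 8 in TASTPM (50.4%), with a median of 0.96 on the log2 scale in WT (all genes 0.06) and 0.75 in TASTPM (all genes 0.01). These shares and those at an unadjusted p are over the 12645 genes that passed the filter, which Anxa1 did not, and shares of groups that do not overlap are over all 14329 genes. An unadjusted limma p below 0.05 with a higher level was reached by 1 of 8 in WT, Anxa6, where 4.77% of all genes reached it, and by 0 of 8 in TASTPM (2.62%). Groups did not overlap for 2 of 8 annexins in WT, Anxa1 and Anxa6, both higher, where 3.75% of all 14329 genes were wholly higher and 3.39% wholly lower. In TASTPM that held for 1 of 8, Anxa7, higher (2.61% of genes wholly higher, 2.66% wholly lower). The smallest p that 4 libraries against 3 allow is 0.0286.

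Averaged over the genotypes, 6 of 8 annexins had an unadjusted limma p below 0.05, all higher in K/BxN ST, where 5.79% of the genes tested did, and 7 of 8 had a fold change above 0 (53.1%). Anxa6 had a log2 fold change of 0.68 (standard error 0.24), Anxa1 of 5.35 (standard error 2.13), Anxa7 of 0.56 (standard error 0.23), Anxa11 of 1.25 (standard error 0.52), Anxa4 of 0.71 (standard error 0.31) and Anxa2 of 3.04 (standard error 1.38). The other two were Anxa5 with 1.15 (standard error 0.56) and Anxa3 with −0.24 (standard error 0.19). The limma adjusted p of the 8 lay between 0.504 and 0.687, and the median of the 8 was 0.93 on the log2 scale against 0.03 over all genes. Exact permutation of the serum labels within genotypes, on log2 values and unadjusted over the 8, gave p = 0.0171 for Anxa6, 0.0253 for Anxa11, 0.0310 for Anxa7, 0.0490 for Anxa4, 0.0531 for Anxa1, 0.0971 for Anxa2, 0.118 for Anxa5 and 0.238 for Anxa3, where 8.16e-04 is the smallest that 1225 assignments allow.

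**Figure D3:**
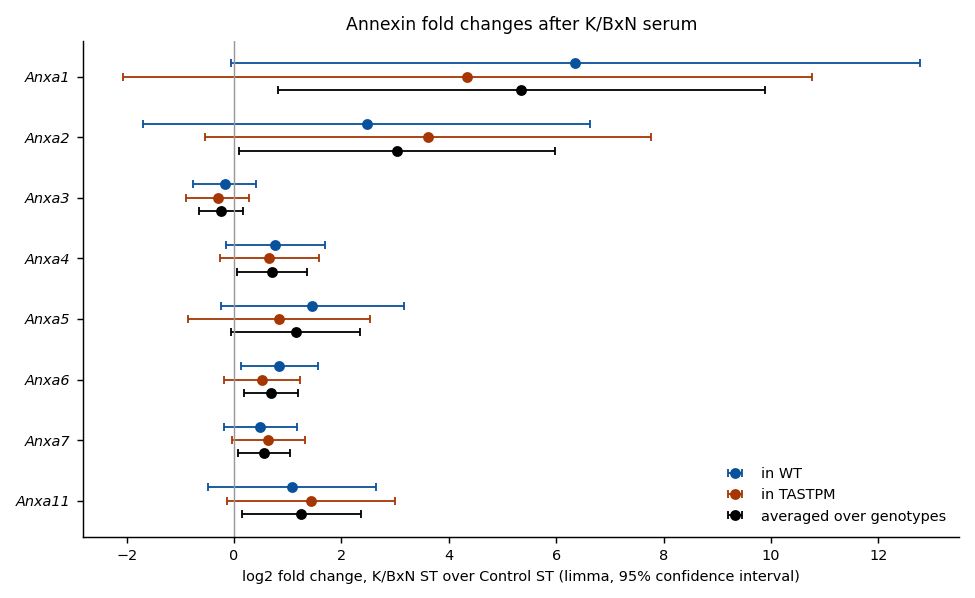
log2 fold change of K/BxN ST over Control ST for each annexin (horizontal axis) with its 95% confidence interval from limma, in WT, in TASTPM and averaged over genotypes. In the average the intervals of Anxa1, Anxa2, Anxa4, Anxa6, Anxa7 and Anxa11 exclude 0 before adjustment, and the widest belong to Anxa1 and Anxa2.

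The call on Anxa1 and Anxa2 depended on the test. Without a filter on low counts, DESeq2 on the recovered reads called Anxa1 in WT (log2 fold change 11.25, adjusted p = 6.00e-05), in TASTPM (7.80, adjusted p = 0.0344) and in the average (9.52, adjusted p = 1.27e-07), where it called 1.92%, 0.614% and 3.06% of 14329 genes. That fit also called Anxa2 in TASTPM (adjusted p = 0.0207) and in the average (adjusted p = 6.89e-05). With the filter, which Anxa1 did not pass, DESeq2 called 1.00%, 0.127% and 1.42% of 12645 genes in WT, TASTPM and the average. There it called Anxa2 in the average (5.59, DESeq2 adjusted p = 2.65e-04), and not in WT (5.06, DESeq2 adjusted p = 0.0988) or TASTPM (6.13, DESeq2 adjusted p = 0.0638). The other 6 annexins were called by none of these tests. Without the 4 libraries, DESeq2 called no annexin in WT, TASTPM or the average, where it called 0.261%, 0.0791% and 0.158% of the genes that passed the filter, and the averaged log2 fold change was −0.082 for Anxa1 and −0.36 for Anxa2 (DESeq2 adjusted p = 0.9995 for each).

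Levels of 4 of the 8 annexins lay apart in the 4 libraries of high leukocyte markers. In these, Anxa1 (3184 to 11653 normalized counts), Anxa2 (7713 to 22561), Anxa5 (5578 to 11553) and Anxa11 (129 to 208) lay above all 10 other libraries, as 8.56% of all 14329 genes did. None of the 8 lay wholly below, where 2.22% of genes did, and Anxa3, Anxa4, Anxa6 and Anxa7 overlapped. The median of Anxa1 was 8358 normalized counts in the 4 libraries and 3.55 in the other 10, that of Anxa2 14833 and 123, and that of Anxa5 9441 and 1506. Medians of Anxa3 were 5861 in the 4 libraries and 8584 in the other 10, and 9 of 10 microglia markers were wholly lower in the 4. Which cells the reads on leukocyte markers came from, and whether such cells account for the annexin levels, was not tested. In RNA of a whole sort the number of cells of a type and the RNA per cell cannot be told apart.

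**Figure D4:**
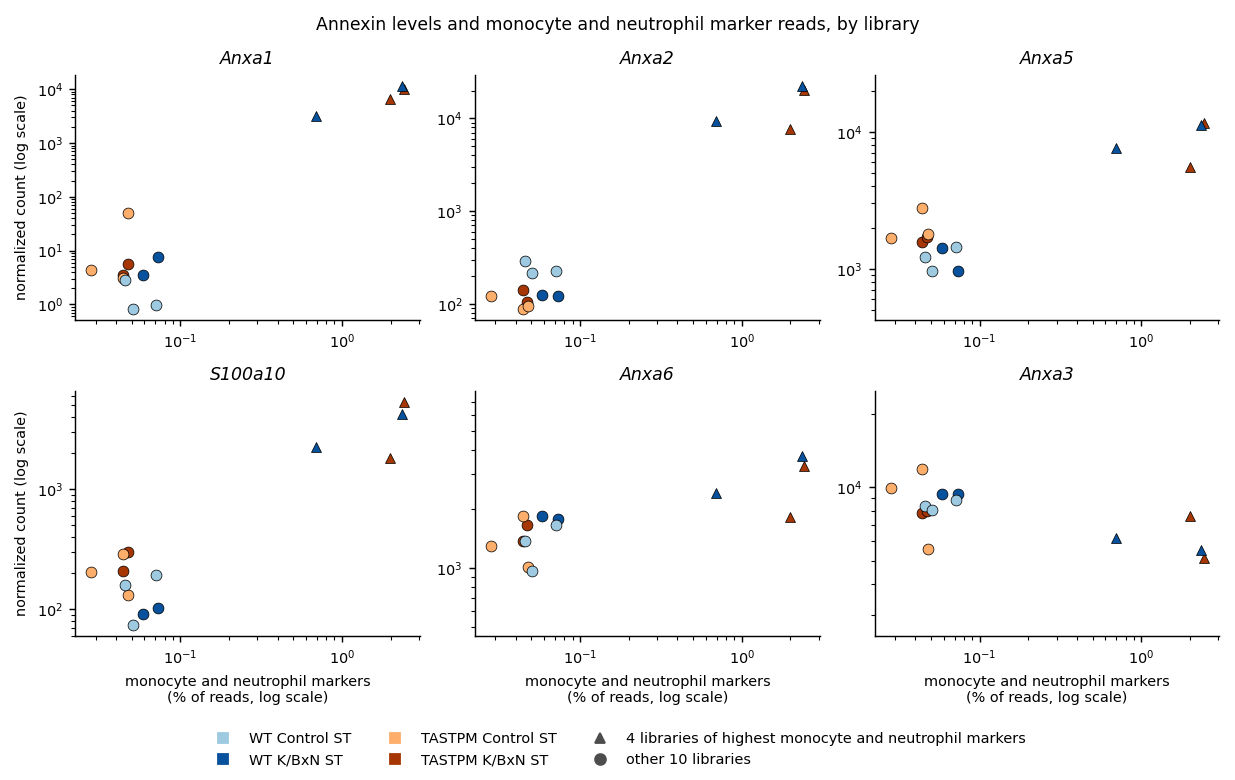
Normalized counts of 5 annexins and S100a10 (vertical log axes) against the share of reads on 20 monocyte and neutrophil markers (horizontal log axis, percent), 1 point per library. Anxa1, Anxa2, Anxa5 and S100a10 are high in the 4 libraries with shares of 0.695% to 2.43%, Anxa6 and Anxa3 overlap between the 4 and the other libraries.

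Without these 4 libraries, 2 remained in each K/BxN ST group and no annexin kept an unadjusted p below 0.05 for serum. The averaged log2 fold changes were then 0.23 for Anxa1, −0.35 for Anxa2, 0.013 for Anxa3, 0.25 for Anxa4, −0.17 for Anxa5, 0.32 for Anxa6, 0.30 for Anxa7 and 0.57 for Anxa11, with limma adjusted p of at least 0.966. Anxa2, Anxa3 and Anxa5 thus changed sign, and Anxa1, Anxa4, Anxa6, Anxa7 and Anxa11 stayed above 0 with smaller values. In WT alone the values without the 4 were 1.39 for Anxa1, −0.97 for Anxa2, 0.16 for Anxa3, 0.26 for Anxa4, −0.029 for Anxa5, 0.48 for Anxa6, 0.16 for Anxa7 and 0.37 for Anxa11. In TASTPM alone they were −0.92, 0.27, −0.14, 0.25, −0.31, 0.17, 0.45 and 0.76 on the log2 scale in the same order. Exact permutation p for the average lay between 0.19 (Anxa6) and 0.96 (Anxa3), where 0.01 is the smallest possible, and 2 libraries against 3 allow none below 0.1 within a genotype. With the mean log2 level of the monocyte and neutrophil markers as a covariate and all 14 libraries, the values were 0.084 for Anxa1, −0.39 for Anxa2, −0.16 for Anxa5, 0.28 for Anxa6 and 0.60 for Anxa11.

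**Figure D5:**
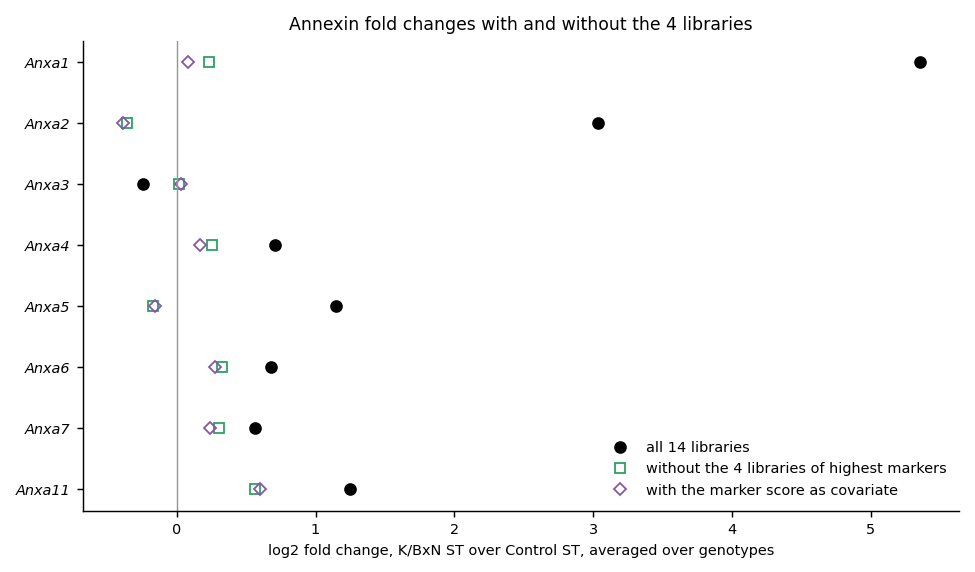
Averaged log2 fold change of each annexin (horizontal axis) from all 14 libraries, without the 4 libraries of highest markers and with the marker score as a covariate, drawn without error bars. Anxa1 moves from 5.35 to 0.23 and Anxa2 from 3.04 to −0.35 when the 4 libraries are left out.

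Between genotypes, no annexin difference passed adjustment. None of the 4 libraries is a Control ST library, though WT Control ST 3 had a neutrophil marker sum of 11934 normalized counts with S100a9 at 1525. Under Control ST, Anxa5 was higher in each of the 3 TASTPM libraries (1681 to 2791) than in each of the 3 WT libraries (971 to 1445), a log2 difference of 0.76 (standard error 0.85, limma adjusted p = 0.976). Anxa2 was lower in each TASTPM library (88.8 to 122) than in each WT library (217 to 288), a log2 difference of −1.25 (standard error 2.08, limma adjusted p = 0.990). Anxa11 was also wholly lower in TASTPM and Anxa1 wholly higher, so that 2 of 8 annexins were wholly higher (4.94% of genes) and 2 wholly lower (4.30%). For Anxa1 the nearest libraries of the groups each held 3 reads, so that the library factors alone set them apart. Each gave an exact permutation p of 0.100, the smallest that 3 libraries against 3 allow. The standard errors of Anxa2 and Anxa5 come from a spread shared by all groups, in which the 4 libraries take part. With the 4 left out, the same differences had unadjusted limma p of 0.0137 for Anxa5 and 0.0264 for Anxa2 (limma adjusted p = 0.728 and 0.782), where 6.10% of genes had an unadjusted p below 0.05, 2 of the 8 annexins among them. With the marker covariate and all 14 libraries the differences were −1.60 for Anxa2 (limma adjusted p = 0.561) and 0.63 for Anxa5 (limma adjusted p = 0.742). Under K/BxN ST, no annexin separated the genotypes (1.08% of genes wholly higher and 0.649% wholly lower), and log2 differences lay between −0.28 for Anxa6 and 0.17 for Anxa4. That of Anxa6 was −0.54 without TASTPM K/BxN ST 1, −0.12 without TASTPM K/BxN ST 3 and −0.055 without WT K/BxN ST 1, and those of the other 7 changed sign with the library left out. The interaction of genotype and serum had limma adjusted p of 0.999 for each of the 8, with the widest interval for Anxa1, from −11.08 to 7.06 on the log2 scale.

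Transcripts of the S100 proteins that pair with annexins were high in the same libraries. S100a10, the partner of Anxa2, had normalized counts of 5330, 1825, 208 and 299 after K/BxN ST and of 286, 205 and 131 after Control ST in TASTPM mice. In WT mice it had 4268, 2243, 90.8 and 102 after K/BxN ST and 158, 73.8 and 192 after Control ST. S100a6, a partner of several annexins, had normalized counts of 6615, 2729, 4.70 and 13.5 after K/BxN ST in TASTPM mice and of 7637, 4348, 14.3 and 28.3 in WT mice, where the 6 Control ST libraries held 0 to 102. S100a11, a partner of Anxa1, had 2124 to 6263 in the 4 libraries. In the average over genotypes all 4 S100 genes had a fold change above 0, where 53.1% of all genes tested lay above 0, and limma and edgeR called 0 of 4. DESeq2 called 4 of 4 in the average, where it called 1.42% of genes, with S100a4 taken from its fit without a filter (3.06%). Without the 4 libraries it called 0 of 4, with DESeq2 log2 fold changes between −0.95 (S100a11) and −0.13 (S100a10). Without a filter it also called S100a6 in TASTPM (adjusted p = 0.0311). At an unadjusted limma p below 0.05, which 5.79% of genes reached with a higher level, stood 2 of 4, S100a6 (log2 fold change 5.05) and S100a10 (2.11), both with a limma adjusted p of 0.536. Without the 4 libraries, the averaged limma log2 fold changes were 0.82 for S100a6, −0.051 for S100a10, −0.17 for S100a11 and −0.27 for S100a4. The formyl peptide receptors Fpr1 and Fpr2, which Anxa1 binds, were at 0 to 22.2 and 0 to 1.17 normalized counts in the other 10 libraries. In the 4 libraries Fpr1 had 578 and 677 (TASTPM) and 1097 and 62.9 (WT), the lowest again in WT K/BxN ST 2, and Fpr2 had 454, 263, 379 and 38.1.

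Other genes of annexin-linked functions, from lists written with earlier results known, held no gene that limma or edgeR called in any comparison. Among 7 genes of membrane repair and calcium-dependent membrane binding, all 7 had an averaged fold change above 0 and 3 an unadjusted limma p below 0.05. These 3 were the ferlin Myof (log2 fold change 3.603), the calpain Capn1 (1.81) and the ESCRT adaptor Pdcd6ip (0.37). Myof had 86.6 to 195 normalized counts in the 4 libraries of high leukocyte markers and 0 in each of the other 10, and Capn1 had 87.5 to 307 and 0.937 to 58.7. Capn2 and Pdcd6 were wholly higher in the 4 libraries as well. Pdcd6ip overlapped, and without the 4 libraries the log2 fold changes were 0.71 for Capn1 and 0.32 for Pdcd6ip. These were the only 2 of the 7 above 0 without the 4, where the median of the list was −0.12. Sri, which had the highest mean of the list, had 0.32 (limma adjusted p = 0.667), and −0.12 without the 4. The counts of this and the next 4 lists stand beside 53.1% of all genes above 0 and 5.79% higher at an unadjusted p below 0.05. Of 7 receptors and bridging proteins of phosphatidylserine recognition, 1 reached an unadjusted limma p below 0.05, the receptor Axl (0.73, limma adjusted p = 0.530), and 3 of 7 had a fold change above 0. The receptor Timd4 had the largest of them (2.32, standard error 1.65, limma adjusted p = 0.644), with 177 and 33.3 normalized counts in TASTPM and 303 and 126 in WT in the 4 libraries, 179 in TASTPM Control ST 2 and 0 to 1.13 in the other 9. Mertk had −0.47 and Pros1, a bridging ligand of Mertk, −0.48. Both were wholly lower in the 4 libraries, where Mertk had 3540 to 6880 normalized counts against 7809 to 13267 in the other 10 and Pros1 7264 to 14643 against 15183 to 26300.4. Without the 4 the log2 fold change was 0.17 for Mertk, −0.00071 for Pros1, 0.62 for Axl and −0.88 for Timd4. Of 7 flippases and scramblases that place phosphatidylserine, 4 had a fold change above 0 and 0 an unadjusted p below 0.05, with 1.39 for Plscr1, −0.21 for Tmem30a and −0.09 for Ano6. Plscr1 had 248 to 1529 normalized counts in the 4 libraries and 15.4 to 142 in the other 10, and without the 4 its log2 fold change was −0.11. In plasminogen activation 1 of 3 genes was above 0, with 0.78 for the receptor Plaur and −0.73 for the activator Plau. Plaur had 1152 to 2596 normalized counts in the 4 libraries and 169 to 977 in the other 10, and without the 4 the values were −0.37 for Plaur and −0.99 for Plau. Of 5 genes of phospholipase A2 products, 2 were above 0 and 1 reached an unadjusted limma p below 0.05, Alox5 (0.49, limma adjusted p = 0.536), beside 0.24 for Alox5ap, −0.48 for Ptgs1 and −1.20 for Ptgs2. Ptgs1 was wholly lower in the 4 libraries (8961 to 20212 normalized counts against 22483 to 34823) and Alox5ap wholly higher (3451 to 4927 against 1963 to 3366). Without the 4 the log2 fold changes were 0.61 for Alox5, −0.14 for Alox5ap, 0.029 for Ptgs1 and −2.35 for Ptgs2. Ptgs2 was scarce, with 0 to 34.2 normalized counts in the 4 libraries and 0 to 40.2 in the other 10, so its values depend on the 1 added to each count. Over the 5 lists, 7 of 29 genes were wholly higher and 3 wholly lower in the 4 libraries, beside 8.56% and 2.22% of all genes. Medians of these 5 lists lay between −0.22 and 0.37 on the log2 scale, against 0.03 over all genes, and 3.14 for the S100 genes. Neither Timd4 nor Fpr2 passed the filter, and in its fit without a filter DESeq2 called Timd4 in WT (adjusted p = 0.0239). Of the formyl peptide receptors it called Fpr2 in TASTPM, in the average and, as lower in TASTPM, under Control ST (adjusted p = 0.0325), a comparison in which 1 of 6 libraries held 1 read and the other 5 none. In that comparison it called 0.324% of genes, 0.586% without a filter and 0.411% without the 4 libraries.

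The transcripts most like each annexin over the 14 libraries differed between members. For Anxa1 the highest Pearson r of log2 levels was with the monocyte transcript Chil3 (r = 0.98, n = 14), and within the other 10 libraries it was 0.65. Anxa2 was most like Arpc1b, a subunit of the Arp2/3 complex that nucleates actin (r = 0.98), and that likeness was 0.13 within the other 10 libraries. Anxa5 was most like S100a10 (r = 0.98, and 0.75 in the other 10). Anxa3 was most like Camk1, a calcium-dependent kinase (r = 0.93, and 0.90 in the other 10), followed by the tetraspanins Cd9 and Cd37 (r = 0.91 for each, and 0.86 and 0.88). Anxa4 was most like Acaa2 (r = 0.91), Anxa6 like Psmd8 (0.92), Anxa7 like Slc48a1 (0.92) and Anxa11 like Cenph (0.91). Between members, Anxa1 and Anxa2 had r = 0.94 over 14 libraries and −0.63 within the other 10, and Anxa4 and Anxa6 had r = 0.89 and 0.71. These correlations share libraries and are descriptions of them, given without p.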

How the data were processed

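RNA of sorted microglia had been amplified with SMART-Seq v4 and made into unstranded libraries. The authors aligned reads to GRCm39 with HISAT2 2.1 and counted them on Ensembl 104 genes with featureCounts 1.5.2, after FastQC 0.11.9. The deposited values are a signal, read counts that the authors divided by DESeq2 size factors, with 1 factor per library; dividing by the value of 1 read gave whole reads for 100% of values (tolerance 0.01 reads). Of 14336 entries, 7 repeated identifiers were left out. Libraries held 14223015 to 20239175 reads. Labels gave the own number of 4 libraries and the group of the rest.

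A count test had been one option of the design, but since the values are normalized the main test was limma 3.58.1 (R 4.3.3), with trend, on log2(normalized count + 1) in 1 fit of 4 groups. Genes needed 10 reads in 7 of 14 libraries (12645 of 14329 genes), and Anxa1, which lacked these, was taken from a fit without the filter. P-values were adjusted over all genes by Benjamini-Hochberg. Fold changes on this scale understate the change of low genes. edgeR 4.0.16 and DESeq2 1.42.0 on recovered reads were alternatives, besides other pseudocounts, filters, scalings, covariates and libraries left out. Each annexin was also tested by exact permutation. The fits were tested on simulated data. Positions, lengths and starts came from GENCODE vM39, and promoter sequence from GRCm39.

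The members and lists were chosen with earlier results of these data known. The text names all 8 members, and of each list of linked genes the 2 of highest mean and the 2 of largest averaged fold change with any called gene, and for each member genes among the 3 of highest Pearson r. S100a10 is named as such a gene. Some genes that this rule names are not reported here. The 4 libraries of high leukocyte markers, DESeq2 without a filter or without these libraries and the canonical length were added after seeing the data.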

Additional observations from a re-analysis of the deposited data

Results flagged for a closer look

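In TASTPM K/BxN ST, Anxa3 had 5112 normalized counts in library 1, while the other 3 libraries lay between 7636 and 7984, a gap of 0.879 of the range of the group. It was the 1 of 16 sets of 4 libraries (8 annexins in 2 groups) with so isolated a library, and chance gives about 1 in 20. That library also held 2.43% of its reads on monocyte and neutrophil markers and the lowest summed microglia markers of the 14, 281285 normalized counts, and their part in the value was not tested.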

How the results depend on the processing

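No paired analysis was possible because the groups share no replicate numbers. The number of genes called in WT (1 by limma) was 0 with a pseudocount of 5, a filter of 50 reads, only the groups compared, edgeR, the marker covariate or without the 4 libraries of high markers, 2 with no trend and robust variances, 127 by DESeq2 and 275 by DESeq2 without a filter. In the average (0) it was 1 with no trend and robust variances, 179 by DESeq2 and 438 by DESeq2 without a filter, and the latter tools gave 16 and 88 in TASTPM (0), 12 and 36 for the interaction (0), and 41 and 84 for genotype under Control ST (0), where the covariate and leaving out the 4 libraries gave 1 each. Beside the limma counts of 0, genes at an unadjusted p below 0.05 numbered 533 in TASTPM, 1170 in the average, 385 for the interaction, 704 for genotype under Control ST and 241 under K/BxN ST. DESeq2 without the 4 libraries called 33 genes in WT, 10 in TASTPM, 20 in the average, 20 for the interaction, 52 for genotype under Control ST and 25 under K/BxN ST, and no annexin. DESeq2 called 1 annexin in WT, 1 in TASTPM and 2 in the average when Anxa1, which did not pass the filter, was taken from the fit without it, and 1, 2 and 2 with all 8 from that fit. Leaving out 1 library gave 0 to 17 genes in WT (17 without WT Control ST library 3, 14 without library 2), 0 to 1 in TASTPM, 0 to 9 in the average, 0 to 3 for the interaction and 0 to 11 for genotype under Control ST (11 without WT Control ST library 3), and no annexin was called in any of the 84 such fits and comparisons.

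Signs changed as follows, and the cause was not tested. With the marker covariate, log2 fold changes were −0.80 (Anxa2) and 0.081 (Anxa3) in WT, −1.16 (Anxa1) and −0.53 (Anxa5) in TASTPM, −0.39 (Anxa2), 0.029 (Anxa3) and −0.16 (Anxa5) in the average, and −0.90 (Anxa1) and −0.12 (Anxa5) for genotype under K/BxN ST. Without the 4 libraries they were −0.97 (Anxa2), 0.16 (Anxa3) and −0.029 (Anxa5) in WT, −0.92 (Anxa1) and −0.31 (Anxa5) in TASTPM, −0.35 (Anxa2), 0.013 (Anxa3) and −0.17 (Anxa5) in the average, and −0.20 (Anxa1) for genotype under K/BxN ST. That genotype difference was −0.071 for Anxa5 by edgeR, −0.066 by DESeq2 and −0.065 by DESeq2 without a filter, and its exact permutation p on linear counts was 1.00. DESeq2 without the 4 libraries gave −0.99 (Anxa2), 0.17 (Anxa3) and −0.014 (Anxa5) in WT, −2.05 (Anxa1) and −0.35 (Anxa5) in TASTPM, −0.082 (Anxa1), −0.36 (Anxa2) and −0.18 (Anxa5) in the average, and −0.30 (Anxa1) for genotype under K/BxN ST. Exact permutation p without the 4 libraries, where the sign changed, was 0.9 for Anxa1 and 0.5 for Anxa5 in TASTPM, 0.1 for Anxa2, 0.2 for Anxa3 and 0.7 for Anxa5 in WT, and 0.23, 0.96 and 0.45 for these 3 in the average; there it rose to 0.42 for Anxa4, 0.19 for Anxa6, 0.29 for Anxa7 and 0.28 for Anxa11. On linear counts the averaged permutation p of Anxa4 was 0.0678 in place of 0.0490. Leaving out 1 library turned signs for the interaction (Anxa2 −0.21 to 2.50, Anxa3 −0.45 to 0.10, Anxa4 −0.39 to 0.23, Anxa7 −0.068 to 0.52, Anxa11 −0.19 to 0.85), for genotype under K/BxN ST (Anxa1 −1.75 to 2.08, Anxa2 −1.46 to 1.24, Anxa3 −0.22 to 0.073, Anxa4 −0.11 to 0.51, Anxa5 −0.45 to 0.73, Anxa7 −0.092 to 0.24, Anxa11 −0.81 to 0.23) and for genotype under Control ST (Anxa3 −0.18 to 0.37, Anxa4 −0.041 to 0.53, Anxa6 −0.18 to 0.25, Anxa7 −0.43 to 0.15), and no serum comparison of an annexin changed sign by it. Without a change of sign, it moved the interaction of Anxa1 (−2.01) between −3.87 without TASTPM K/BxN ST library 1 and −0.043 without WT K/BxN ST library 1, that of Anxa5 (−0.62) between −1.21 without WT K/BxN ST library 4 and −0.031 without library 1, and that of Anxa6 (−0.33) between −0.59 without TASTPM K/BxN ST library 1 and −0.10 without TASTPM Control ST library 1 or WT K/BxN ST library 1. For genotype under Control ST, Anxa1 (2.12) was 0.99 without TASTPM Control ST library 3 and Anxa11 (−0.62) was −0.37 without library 2. Values moved by over 1.5 times all the same: in WT, Anxa2 was 1.11 without K/BxN ST library 1 and 1.53 without library 2, Anxa4 0.43 and Anxa5 0.87 without library 1, Anxa11 1.62 without library 4, and Anxa7 0.12 and Anxa4 0.44 without Control ST library 2. In TASTPM, without K/BxN ST library 1, Anxa1 was 2.48, Anxa2 2.26, Anxa4 0.40, Anxa5 0.28 and Anxa6 0.26, and Anxa1 was 2.69 without library 2. Anxa3 ranged from −0.29 to −0.036 in WT, from −0.63 to −0.081 in TASTPM and from −0.40 to −0.13 in the average, and without TASTPM Control ST library 3 Anxa4 was 0.41 and Anxa6 0.32. Anxa1, at 1 to 7 reads in 9 libraries, is limited by depth there.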

Other observations

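Anxa9, a further annexin of the deposited values that was not among the 8, was low throughout and was named after its values were seen. After K/BxN ST its normalized counts were 57.2, 65.6, 0 and 0 for TASTPM and 65.9, 55.8, 0 and 0 for WT, so that it was listed above 0 only in the 4 libraries of high leukocyte markers among these 8. After Control ST they were 0, 13.3 and 0 for TASTPM and 0, 18.4 and 64.9 for WT.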
